A study of Mus musculus with 11 samples.

Results

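The proteasome genes of mouse macrophages were described here in cells given a microRNA-150 (miR-150) mimic and in cells given a negative control. The members were the protein-coding genes whose symbol is Psm, a letter from a to g and a number, with or without a last letter, which selected 49 of the 31936 genes in the deposited table. Of these, 48 had enough reads to be tested. Within them, 5 immune subunits (Psmb8, Psmb9, Psmb10, Psme1 and Psme2) were set against the other 44, of which 43 were tested.

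RNA was sequenced from 6 libraries of macrophages given the mimic, a synthetic copy of the microRNA, and 5 libraries of macrophages given a negative control. Both groups were thioglycollate-elicited peritoneal macrophages of female mice, inflammatory cells that enter the abdominal cavity after an irritant is injected. The labels give no strain, age, genotype or dose, do not say how the mimic was delivered, and do not say whether replicates were separate animals or cultures, so p-values reflect the spread among these libraries, part of which may be technical. The submitters omitted a further sample for improper fragmentation, and it was not analysed here.

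The proteasome is the protease complex that degrades ubiquitin-tagged proteins in the cytosol and nucleus. Its barrel-shaped core, the 20S particle, has outer rings of alpha subunits and inner rings of beta subunits, of which Psmb5, Psmb6 and Psmb7 carry the catalytic sites. In cells exposed to interferon these are replaced in newly made cores by Psmb8, Psmb9 and Psmb10, which gives the immunoproteasome, a form known for making peptides that fit MHC class I. The core is opened by a cap: the 19S regulatory particle, which binds ubiquitin chains and unfolds substrates with a ring of ATPases, or the PA28 activator made of Psme1 and Psme2.

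Upstream sequences of both kinds of catalytic subunit are shown because the results turn on the contrast between them. Each run is 5′ to 3′ on the strand of the gene and ends at the last base before the transcription start in RefSeq's annotation of GRCm38.p6; capitals mark the motifs searched. The Psmb8 run is chr17:34197945-34198194, plus strand. The Psmb9 run is chr17:34187331-34187555, minus strand, and is the whole stretch between the start of Psmb9 and that of Tap1, a peptide transporter gene that is read in the opposite direction. The Psmb5 run is chr14:54617996-54618245, minus strand, and the Psmb6 run is chr11:70525107-70525356, plus strand.
Psmb8: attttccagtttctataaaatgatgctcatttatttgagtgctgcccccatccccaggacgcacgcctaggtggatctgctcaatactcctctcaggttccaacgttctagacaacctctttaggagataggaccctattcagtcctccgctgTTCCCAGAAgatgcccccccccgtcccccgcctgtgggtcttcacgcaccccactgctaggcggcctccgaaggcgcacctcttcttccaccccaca
Psmb9: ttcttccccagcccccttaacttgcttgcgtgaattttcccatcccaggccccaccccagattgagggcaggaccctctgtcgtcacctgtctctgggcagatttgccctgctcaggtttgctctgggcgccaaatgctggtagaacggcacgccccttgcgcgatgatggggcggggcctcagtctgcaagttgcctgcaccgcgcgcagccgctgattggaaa
Psmb5: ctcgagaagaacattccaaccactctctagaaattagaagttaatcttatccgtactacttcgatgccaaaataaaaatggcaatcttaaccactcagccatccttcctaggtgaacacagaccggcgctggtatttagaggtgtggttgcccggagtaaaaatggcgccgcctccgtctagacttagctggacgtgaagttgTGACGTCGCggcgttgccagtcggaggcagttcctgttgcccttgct
Psmb6: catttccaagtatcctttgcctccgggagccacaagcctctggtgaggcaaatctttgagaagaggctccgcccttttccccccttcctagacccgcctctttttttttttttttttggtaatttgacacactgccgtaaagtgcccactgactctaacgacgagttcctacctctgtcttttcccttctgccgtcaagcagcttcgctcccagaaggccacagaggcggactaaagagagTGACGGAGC

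Short motifs of 3 kinds were searched on both strands of the 250 bases before each start: GAAA, any 2 bases and GAAA again, the core of the interferon-stimulated response element; TTCNNNGAA, the interferon gamma-activated site; and TGACNNNGC, the core of the antioxidant element, which factors of the NRF family bind. Windows were found for 41 of the 49 members, and some members had more than 1 start. The gamma-activated motif stood in 7.02% of all 32851 RefSeq windows and in those of 2 members, Psmb8 (bases -97 to -89, counted from the start) and Psmg1. The antioxidant core stood in 10.2% of all windows and in those of 5 members, among them Psmb5 (-47 to -39) and Psmb6 (-9 to -1). The response element core stood in 2.98% of all windows and in those of Psmb3, Psmd4 and Psmd9, and in those of 0 of the 5 immune subunits. No printed run held more than 1 of the 3 motifs, so none overlapped another there. A match describes letters in a window, and GENCODE gives starts of Psmb8 and Psmb9 that lie farther upstream.

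Reads counted in genes numbered 20313901 to 25473814 per mimic library and 18538509 to 22668862 per control library. Of the 12969 genes tested, 15.4% were called higher with the mimic and 14.6% lower, at a limma adjusted p (Benjamini-Hochberg, over all genes) below 0.05. The mimic libraries varied more among themselves than the controls. The leading component of the deviations from the group means held 28.3% of their variance, and mimic replicates 1, 2 and 5 (scores 0.647, 0.252 and 0.224) stood opposite replicates 3, 4 and 6 (-0.216, -0.478 and -0.427), while control scores lay between -0.058 and 0.056. Across genes this component ran with transcript length (Spearman's rho -0.42 over the tested genes, which are not independent replicates), short transcripts being relatively high in mimic replicates 1, 2 and 5. Results are therefore also given without mimic replicates 3, 4 and 6, and with each library corrected for its trend with length. In bulk RNA, fewer cells of a type and less RNA per cell cannot be told apart.

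The labelled cell type was checked with marker lists. All 8 macrophage markers were tested, and their summed level was 15933 to 20299 CPM (a gene's reads scaled to the library total, as deposited) in the mimic libraries and 17777 to 20592 in the controls; Fcgr1 and Adgre1 were higher with the mimic, and Lyz2 and Cd14 lower. Neutrophil markers summed to 8.18 to 15.3 CPM with the mimic and 13.3 to 16.8 in controls, nearly all of it from S100a8 (1393 and 1503 reads). The other neutrophil markers had 0 to 9 reads over each group. T and NK cell markers summed to 2.18 to 3.07 with the mimic and 2.80 to 3.46 in controls, most of it from Cd2. B cell markers summed to 1.87 to 2.82 with the mimic and 2.22 to 2.79 in controls, and dendritic cell markers to 2.50 to 3.46 with the mimic and 2.72 to 3.90 in controls. Mast cell and eosinophil markers summed to 27.7 to 29.6 CPM with the mimic and 34.1 to 36.1 in controls, nearly all of it from Siglecf, and fibroblast and mesothelial markers to 29.5 to 60.9 with the mimic and 42.2 to 61.5 in controls. In these 6 lists of other cell types 12 genes had enough reads to be tested and none was at 0 in every library; S100a8, Cd2 and Siglecf were lower with the mimic and 0 were higher. Their part in the results below was not tested.

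The immune subunits were higher with the mimic: 4 of 5 passed the test, where 15.4% of all genes were called higher and 14.6% lower. The median of the 5 log2 fold changes was 0.49, against 0.052 for the 43 other proteasome genes and 0.00071 for all genes tested. Psme2, Psmb8, Psme1 and Psmb10 rose by 1.53-, 1.43-, 1.40- and 1.37-fold. In these 4 genes every mimic library lay above every control library, as in 12 of the 48 tested members and 8.89% of all genes; the reverse held for 0 members and 6.04% of all genes. Psmb9 measured 1.26-fold and missed the threshold.

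Psmb8, the immune counterpart of Psmb5 (ENSMUSG00000024338, chromosome 17, 34197721 to 34201454, plus strand, GENCODE M21 annotation of GRCm38), had log2 CPM of 7.05 at the lowest, 7.26 at the median and 7.46 at the highest of the 6 mimic libraries, against 6.71, 6.67, 6.78, 6.74 and 6.82 in the 5 controls. The groups did not overlap, and mimic replicates 1, 2 and 5 were the highest. It averaged 7.26 ± 0.17 (SD, n = 6) with the mimic and 6.74 ± 0.058 (SD, n = 5) in controls, so the change on the log2 scale was 0.52 ± 0.066 (SE; limma adjusted p = 3.01e-05).

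Psmb10, the immune counterpart of Psmb7 (ENSMUSG00000031897, chromosome 8, 105935735 to 105938444, minus strand), had 6.61, 6.73 and 6.96 as the lowest, median and highest log2 CPM with the mimic, against 6.28, 6.22, 6.36, 6.32 and 6.39 in controls. Again no mimic library reached down to a control. The rise was 0.45 ± 0.062 on the log2 scale (SE; limma adjusted p = 6.59e-05).

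Psmb9, the immune counterpart of Psmb6 (ENSMUSG00000096727, chromosome 17, 34181987 to 34187764, minus strand), had 5.28, 5.69 and 6.00 as the lowest, median and highest log2 CPM with the mimic, against 5.35, 5.28, 5.38, 5.29 and 5.34 in controls. Mimic replicates 1, 2, 3 and 5 lay above every control, whereas replicates 4 and 6 lay within the control range. The difference was 0.33 ± 0.12 on the log2 scale (SE; limma adjusted p = 0.0546), and 9 of the 24 alternatives took it past the threshold. Of the 11 fits that left out 1 library, it passed only without mimic replicate 4 (0.40, adjusted p = 0.0180) or 6 (0.39, adjusted p = 0.0300). In the other 9 the adjusted p reached 0.0965, and the lowest estimate was 0.26, without mimic replicate 1. After the length correction it was 0.41 (limma adjusted p = 0.00331), and without mimic replicates 3, 4 and 6 it was 0.60 (limma adjusted p = 1.64e-10). Those libraries were picked from the spread of these same data and hold the lowest mimic values of Psmb9. Leaving them out was bound to raise the estimate and narrow the spread, so that fit is no independent support. The exons of Psmb9 overlap those of Tap1 on the opposite strand over 15.7% of its transcript, and whether the authors' counting used strand is not given in the sources used here; Tap1 was itself higher, by 1.10 on the log2 scale.

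**Figure D1:**
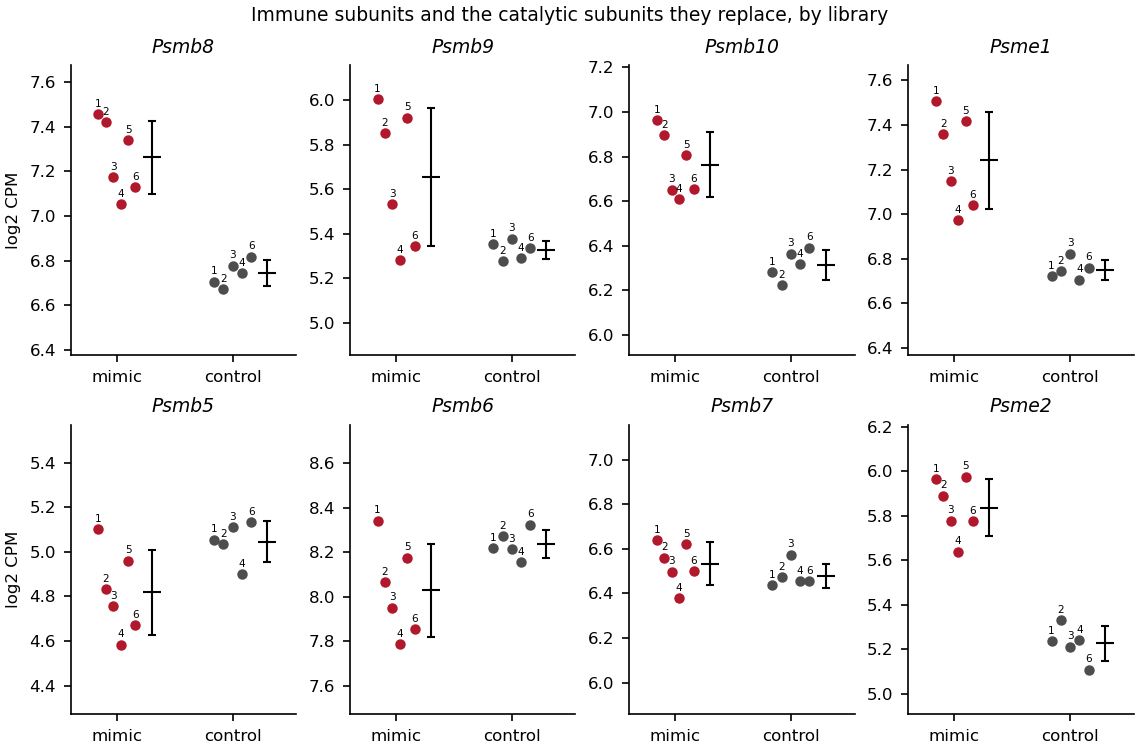
Log2 CPM of the 5 immune subunits (Psmb8, Psmb9, Psmb10, Psme1, Psme2) and of the 3 constitutive catalytic subunits they replace (Psmb5, Psmb6, Psmb7) in each library, mimic on the left (red, 6 libraries) and control on the right (grey, 5 libraries), with replicate numbers above the points and the mean and SD beside each group; each panel spans 1.3 log2 units. The groups separate for Psmb8, Psmb10, Psme1 and Psme2, and overlap for Psmb9 and the 3 constitutive subunits.

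Both genes of PA28, which opens the core without ubiquitin or ATP, rose. Psme2 (ENSMUSG00000079197, chromosome 14, 55587441 to 55591113, minus strand) had 5.64, 5.83 and 5.97 as the lowest, median and highest log2 CPM with the mimic, against 5.24, 5.33, 5.21, 5.24 and 5.11 in controls, with a gap between the groups. Its rise was 0.61 ± 0.060 on the log2 scale (SE; limma adjusted p = 1.20e-06). Psme1 (ENSMUSG00000022216, chromosome 14, 55578123 to 55581529, plus strand) had 6.97, 7.25 and 7.51 with the mimic, against 6.72, 6.75, 6.82, 6.71 and 6.76 in controls. Its groups were likewise separate, with replicates 4 and 6 nearest the controls, and it rose by 0.49 ± 0.083 (SE; limma adjusted p = 0.000668).

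Psme2b, a single-exon copy of Psme2 on chromosome 11 (48945354 to 48946190, minus strand), was also higher, by 0.78 ± 0.095 on the log2 scale (SE; limma adjusted p = 1.53e-05). Its log2 CPM was 2.42, 2.49 and 2.69 at the lowest, median and highest with the mimic, against 1.68, 1.87, 1.97, 1.47 and 1.72 in controls, and the groups did not overlap. Of the stretches of 50 bases in the Psme2b transcript, 69.3% also occur in Psme2 or in the pseudogene Gm7928, and 59.3% of those in Psme2 occur in these copies. The values of both genes are therefore uncertain, since how the authors' counting treated shared reads is not known. The other immune subunits shared less: 14.1% of Psme1 with processed copies, 5.83% of Psmb8 and 12.5% of Psmb9 with the gene on the opposite strand, and 0% of Psmb10.

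Among themselves the 5 immune subunits varied together across the mimic libraries. The median of their deviations from the control mean was 0.71, 0.61 and 0.60 log2 units in mimic replicates 1, 2 and 5, and 0.40, 0.30 and 0.34 in replicates 3, 4 and 6; in the controls it lay between -0.050 and 0.049. The higher 3 and the lower 3 are the same sets of libraries that stood opposite each other in the leading component, and the part of its trend with length in the spread was not tested. Without mimic replicates 3, 4 and 6 all 5 immune subunits passed, with a median log2 fold change of 0.66, where 9.36% of all genes were called higher and 6.83% lower. Since those libraries hold the lowest mimic values of each immune subunit, leaving them out was bound to raise these changes. After the length correction all 5 passed as well, with a median of 0.57, where 16.2% of all genes were called higher and 14.9% lower.

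Over the 11 libraries, the gene nearest in pattern to Psmb8 was H2-T23, a non-classical MHC class I gene (Pearson's r 0.996), followed by Psmb10 (0.996) and Tapbp (0.991), the gene of the peptide-loading bridge tapasin. Psmb10 was nearest to Psmb8, H2-T23 (0.990) and Tapbp (0.982). Psme2 was nearest to B2m (0.987), the light chain of MHC class I, then Anapc5 (0.986) and Ms4a6d (0.983), and Psme1 to Npc2 (0.992), Shisa5 (0.991) and Tapbp (0.987). Psmb9 was nearest to Plod3 (0.989), Clcn7 (0.976) and Rab8a (0.965). These correlations are descriptions over the same 11 libraries, which share the group difference, the depth and the length trend.

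None of the 3 constitutive catalytic subunits was called higher. Psmb5, of the chymotrypsin-like site (ENSMUSG00000022193, chromosome 14, 54614119 to 54618022, minus strand), had 4.58, 4.80 and 5.10 as the lowest, median and highest log2 CPM with the mimic, against 5.06, 5.03, 5.11, 4.90 and 5.13 in controls. Mimic replicates 2, 3, 4 and 6 lay below every control and replicates 1 and 5 within their range. The difference was -0.23 ± 0.079 on the log2 scale (SE; limma adjusted p = 0.0390). This call depended on the libraries: it was lost in 8 of the 11 fits that left out 1 library (every one but those without mimic replicate 1, mimic replicate 5 or control replicate 4), with adjusted p up to 0.0946, and after the length correction the value was -0.064 (limma adjusted p = 0.334). Of its stretches of 50 bases, 57.1% also occur in a pseudogene or in Mir686, so its value is uncertain too.

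Psmb6, of the caspase-like site (ENSMUSG00000018286, chromosome 11, 70525367 to 70527858, plus strand), had 7.79, 8.01 and 8.34 with the mimic, against 8.22, 8.27, 8.21, 8.15 and 8.32 in controls. It overlapped the controls in both directions, with mimic replicate 1 above them, replicates 2, 3, 4 and 6 below them and replicate 5 among them, and measured -0.21 ± 0.081 on the log2 scale (SE; limma adjusted p = 0.0654). It passed as lower without mimic replicate 1 (-0.27, adjusted p = 0.00173) and without mimic replicate 5 (-0.24, adjusted p = 0.0439). After the length correction, however, Psmb6 measured -0.018 (limma adjusted p = 0.753), and without mimic replicates 3, 4 and 6 it measured -0.042 (limma adjusted p = 0.680). Psmb7, of the trypsin-like site (ENSMUSG00000026750, chromosome 2, 38588036 to 38644087, minus strand), had 6.38, 6.53 and 6.64 with the mimic, against 6.44, 6.47, 6.57, 6.46 and 6.45 in controls. The groups overlapped and differed by 0.054 ± 0.048 (SE; limma adjusted p = 0.413); Psmb7 passed as higher after the length correction (0.17, adjusted p = 0.00160) and without mimic replicates 3, 4 and 6 (0.13, adjusted p = 0.0258). Exons of Nek6 on the opposite strand overlap 34.9% of its transcript.

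Each immune catalytic subunit was then set against the one it replaces within the same library, so that the scaling of libraries cancels. The log2 ratio of Psmb8 to Psmb5 was 2.36, 2.44 and 2.59 at the lowest, median and highest with the mimic, against 1.65, 1.64, 1.67, 1.84 and 1.68 in controls. That of Psmb9 to Psmb6 was -2.51, -2.38 and -2.21 with the mimic, against -2.87, -2.99, -2.83, -2.86 and -2.99 in controls, and that of Psmb10 to Psmb7 was 0.15, 0.21 and 0.34 with the mimic, against -0.16, -0.25, -0.21, -0.14 and -0.064 in controls. In all 3 ratios every mimic library lay above every control, also for Psmb9, whose own level overlapped. Part of the Psmb9 to Psmb6 difference comes from Psmb6, which measured -0.21 (limma adjusted p = 0.0654), and -0.018 after the length correction. How often other pairs of genes separate in this way was not determined.

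The mean differences were 0.75 ± 0.051, 0.54 ± 0.061 and 0.39 ± 0.046 on the log2 scale (SE; n = 6 mimic and 5 control libraries) for Psmb8 to Psmb5, Psmb9 to Psmb6 and Psmb10 to Psmb7, or 1.68-, 1.45- and 1.31-fold. A two-sided exact permutation test over the libraries gave p = 0.00216 for each, the smallest that it allows, and 0.00216 with Benjamini-Hochberg adjustment over the 3 ratios. Psmb5, Psmb6 and Psmb7 (899, 798 and 1160 nt) are shorter than Psmb8, Psmb9 and Psmb10 (1628, 1352 and 1311 nt), so the length trend enters these ratios. After the length correction the differences were 0.64, 0.43 and 0.37, and without mimic replicates 3, 4 and 6 they were 0.74, 0.64 and 0.45. Per kilobase of transcript, Psmb8 stood at 3.01 ± 0.18 times the level of Psmb5 with the mimic and 1.79 ± 0.11 times in controls, Psmb9 at 0.114 ± 0.010 and 0.0787 ± 0.0041 times that of Psmb6, and Psmb10 at 1.04 ± 0.059 and 0.791 ± 0.039 times that of Psmb7 (SD, n = 6 and 5). The sizes of these ratios are uncertain, since Psmb5 shares stretches with other genes, Psmb7 and Psmb9 overlap genes on the opposite strand, and how such reads were counted is not known.

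**Figure D2:**
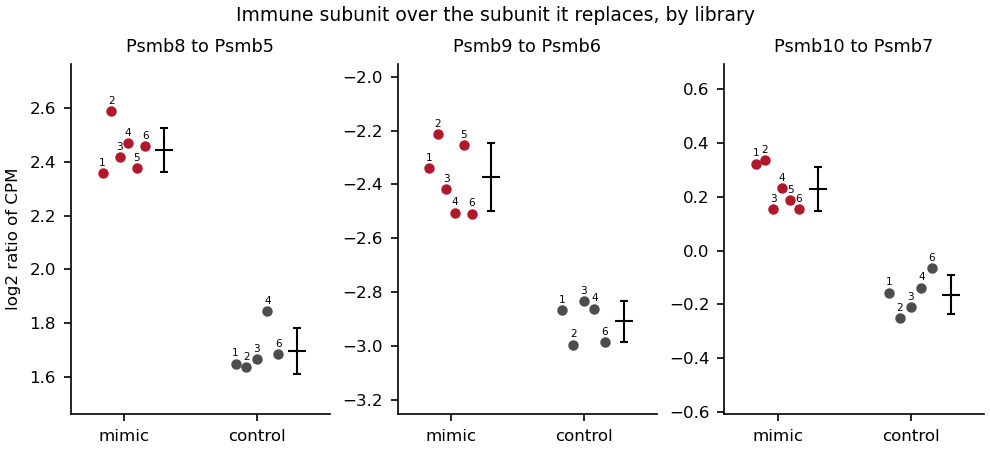
Log2 ratio of the CPM of each immune catalytic subunit to that of the constitutive subunit it replaces, in each library, mimic on the left (red, 6 libraries) and control on the right (grey, 5 libraries), with replicate numbers above the points and the mean and SD beside each group; each panel spans 1.3 log2 units. All 6 mimic libraries lie above all 5 controls in each of the 3 ratios.

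Of the other 43 proteasome genes 10 were called higher, or 23.3% against 15.4% of all genes, and 3 lower, or 6.98% against 14.6%. The higher ones were Psme2b, the activator gene Psme4, the alpha subunit gene Psma3 and 7 of the 19S genes; the lower ones were Psmb5, Psmd3 and Psmg4. The lower count rested on single libraries: it was 14 without mimic replicate 1, where 20.8% of all genes were called higher and 19.3% lower, 5 without mimic replicate 5, 1 without mimic replicate 3 or 6 or control replicate 2, 3 or 6, and 0 without mimic replicates 3, 4 and 6 together. After the length correction the counts were 17 higher and 2 lower, where 16.2% of all genes were higher and 14.9% lower.

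**Figure D3:**
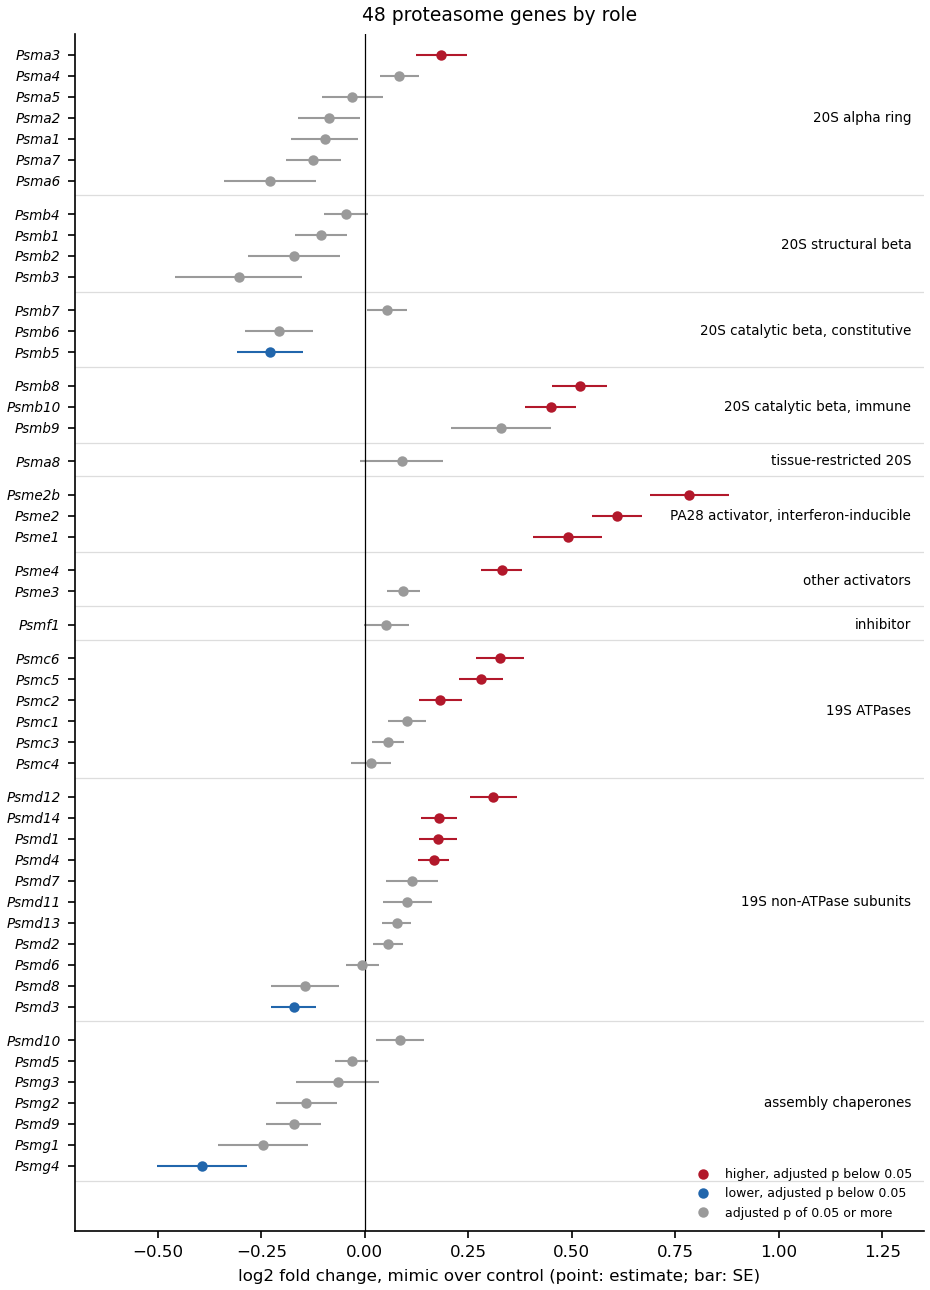
Log2 fold change (mimic over control, with SE) of the 48 tested proteasome genes, in groups by role. The 3 PA28 genes and the 3 immune catalytic genes lie between 0.33 and 0.78, the 19S genes mostly between 0 and 0.33, and most constitutive 20S genes and assembly chaperones below 0.

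In the constitutive 20S core, 1 of 14 genes was higher and 1 lower (7.14% each, against 15.4% and 14.6% of all genes), and 11 had a log2 fold change below 0, with a median of -0.10. None of the 14 separated the groups, where 8.89% of all genes had every mimic library above every control and 6.04% had every one below. Psma3, of the alpha ring, rose by 0.18 ± 0.061 on the log2 scale (SE; limma adjusted p = 0.0328), with 4.40, 4.57 and 4.65 as the lowest, median and highest log2 CPM with the mimic, against 4.35, 4.52, 4.36, 4.28 and 4.26 in controls. Mimic replicates 2 and 3 lay within the control range, and the call was lost without mimic replicate 4, 5 or 6 or control replicate 1, 3, 4 or 6 (0.16 to 0.19, adjusted p up to 0.0846). Among the structural beta subunits Psmb3 had the smallest p, at -0.31 ± 0.15 (SE; limma adjusted p = 0.150). Its mimic libraries ran from 3.73 through 4.22 at the median to 4.80, across the controls at 4.55, 4.61, 4.52, 4.40 and 4.52. It shares 55.8% of its stretches of 50 bases with processed copies.

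Values of the core genes were spread widely in the mimic group, as were those of most members. The SD over the mimic libraries exceeded that over the controls in 40 of the 48 tested members, with medians of 0.13 and 0.066. The share over all tested genes was not counted. Over all tested genes, the root mean square deviation from the group mean was 0.176 to 0.253 per mimic library and 0.169 to 0.180 per control library. The median deviation of the 14 constitutive core genes from the control mean was 0.16, -0.13, -0.18, -0.30, 0.025 and -0.21 in mimic replicates 1 to 6, against -0.059 to 0.056 in controls. Replicates 1 and 5, among the libraries in which short transcripts were relatively high, were the 2 above 0. Without mimic replicates 3, 4 and 6 the median log2 fold change of these genes was 0.037, with 2 higher and 0 lower (9.36% and 6.83% of all genes). Without mimic replicate 1 it was -0.16, with 1 higher and 9 lower (20.8% and 19.3% of all genes).

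The core genes with restricted expression were low. Psma8, a testis alpha subunit, measured 0.089 ± 0.10 (SE; limma adjusted p = 0.525), and its log2 CPM of 1.41, 1.52 and 1.59 with the mimic overlapped 1.22, 1.53, 1.56, 1.26 and 1.58 in controls. Psmb11, the beta subunit of the thymic cortex, was the member that was not tested, with 7 reads over the 6 mimic libraries and 7 over the 5 controls.

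Of the 17 genes of the 19S regulatory particle 7 were higher, or 41.2% against 15.4% of all genes, and 1 was lower, or 5.88% against 14.6%; 14 had a log2 fold change above 0, and the median was 0.10. The ATPase genes Psmc6, Psmc5 and Psmc2 rose by 0.33 ± 0.057, 0.28 ± 0.053 and 0.18 ± 0.052 (SE; limma adjusted p = 0.000679, 0.00121 and 0.0160). Psmc6, of the ring that unfolds substrates, had 6.46, 6.63 and 6.74 as the lowest, median and highest log2 CPM with the mimic, against 6.33, 6.37, 6.34, 6.21 and 6.19 in controls, with no overlap. The other 3 ATPase genes, Psmc1, Psmc3 and Psmc4, measured 0.10, 0.056 and 0.015.

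Of the 11 non-ATPase genes, 4 were higher, or 36.4% against 15.4% of all genes, and 1 was lower, or 9.09% against 14.6%. Psmd12, of the lid, rose by 0.31 ± 0.057 (SE; limma adjusted p = 0.000937), with 6.10, 6.25 and 6.42 as the lowest, median and highest log2 CPM with the mimic and 5.99, 5.89, 6.03, 5.90 and 5.92 in controls, again without overlap. Psmd14, the deubiquitinase of the lid, rose by 0.18 ± 0.043, Psmd1, a scaffold of the base, by 0.18 ± 0.047, and Psmd4, a ubiquitin receptor, by 0.17 ± 0.038 (SE; limma adjusted p = 0.00646, 0.0109 and 0.00500). Psmd3, of the lid, fell by 0.17 ± 0.055 (SE; limma adjusted p = 0.0278), a call lost without mimic replicate 3 or 6 or control replicate 2, 3, 4 or 6 (-0.17 to -0.16, adjusted p up to 0.0617) and without all 3 of mimic replicates 3, 4 and 6 (-0.073, adjusted p = 0.248). The other 6 lay between -0.14 (Psmd8) and 0.11 (Psmd7). Among them Psmd13 had every mimic library above every control at 0.077 ± 0.035 and missed the threshold (limma adjusted p = 0.104).

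The median deviation of the 19S genes from the control mean was 0.10, 0.070, 0.16, 0.066, 0.17 and 0.15 in replicates 1 to 6, against -0.047 to 0.035 in controls. These values do not overlap, and all 6 mimic libraries were above 0, while 4 of 6 were below 0 for the core genes; the difference between 19S and core genes was not tested. Of the 17 genes, 5 were higher and 0 lower without mimic replicates 3, 4 and 6 (9.36% and 6.83% of all genes), and 11 were higher and 1 lower after the length correction (16.2% and 14.9% of all genes). Psmc2 and Psmd1 were among those lost in the fit without the 3 libraries (0.12 and 0.11; limma adjusted p = 0.104 and 0.0553).

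**Figure D4:**
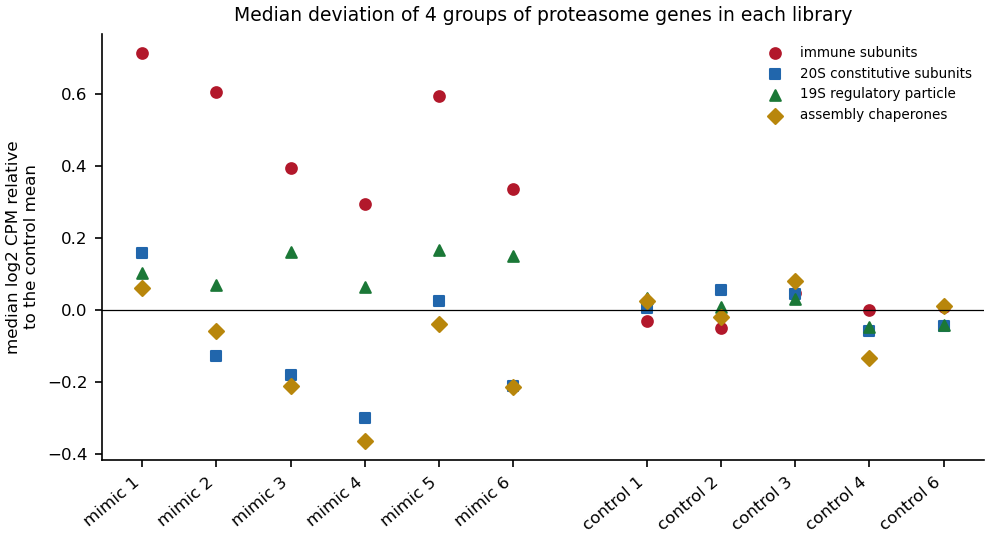
Median deviation of log2 CPM from the control mean in each library, for the 5 immune subunits (red circles), the 14 constitutive 20S genes (blue squares), the 17 genes of the 19S particle (green triangles) and the 7 assembly chaperones (yellow diamonds), with the 6 mimic libraries left of the 5 controls. The immune subunits lie between 0.30 and 0.71 in the mimic libraries and the 19S genes between 0.066 and 0.17, while the 20S genes and the chaperones run from 0.16 and 0.061 in mimic replicate 1 to -0.30 and -0.36 in mimic replicate 4.

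Beside PA28, the nuclear activator gene Psme4 rose by 0.33 ± 0.050 on the log2 scale (SE; limma adjusted p = 0.000172). It had 7.37, 7.49 and 7.65 as the lowest, median and highest log2 CPM with the mimic, against 7.20, 7.18, 7.17, 7.18 and 7.16 in controls, and the groups did not overlap. Its transcript, at 6491 nt the longest of the members, was highest in mimic replicates 3, 4 and 6; it passed without them too, at 0.23 (limma adjusted p = 1.48e-05). Psme3, the nuclear relative of PA28, measured 0.093 ± 0.040 (SE; limma adjusted p = 0.0883). Psmf1, an inhibitor of the core in vitro, measured 0.052 ± 0.054 (SE; limma adjusted p = 0.484), with 4.90, 5.03 and 5.20 with the mimic around 4.95, 5.03, 5.02, 4.98 and 4.98 in controls.

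The 7 genes of assembly chaperones, which help build the core and the ATPase ring and are not part of the finished particle, gave 0 higher and 1 lower, against 15.4% and 14.6% of all genes, with a median of -0.14. Psmg4, with the shortest transcript of all members at 555 nt, fell by 0.39 ± 0.11 on the log2 scale (SE; limma adjusted p = 0.0142). Its log2 CPM was 3.47, 3.61 and 4.16 at the lowest, median and highest with the mimic, against 4.15, 4.21, 4.14, 3.95 and 4.04 in controls, mimic replicate 1 being the one within the control range. After the length correction Psmg4 measured -0.14 (limma adjusted p = 0.104), and without mimic replicates 3, 4 and 6 -0.18 (limma adjusted p = 0.171). Psmg1, Psmd9, Psmg2, Psmg3 and Psmd5 lay between -0.25 and -0.032, and Psmd10 at 0.084.

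**Figure D5:**
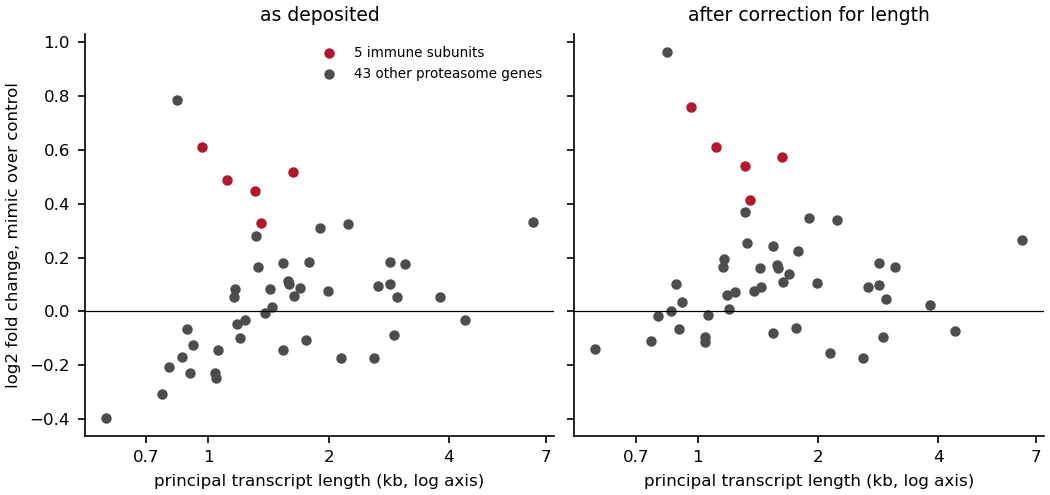
Log2 fold change (mimic over control) of the 5 immune subunits (red) and the 43 other tested proteasome genes (grey) against the length of the principal transcript in kilobases (log axis), from the values as deposited (left) and with each library corrected for length (right). On the left the other genes run upward from -0.39 at the shortest transcript, apart from Psme2b at 0.78; on the right the 5 immune subunits lie between 0.41 and 0.76.

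Length and change ran together among the other 43 genes, with Spearman's rho 0.48 (Pearson's r 0.36 with log2 length) from the values as deposited and 0.19 (0.021) after the correction; across all 12939 tested genes with a length rho was 0.25 and -0.034. These are descriptions across genes of the same libraries. The immune subunits have short transcripts (962 to 1628 nt, median 1311), against a median of 1540 nt for the other 43 and 2869 nt for all genes tested. Within this span of lengths, which the immune subunits themselves set, each of them lay above every other member, both before and after the correction. Outside it, Psme2b (837 nt) lay above all of them, at 0.78 before and 0.96 after. Psme4 (6491 nt), at 0.331, lay just above Psmb9, at 0.329, before the correction.

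Per kilobase, the members covered a wide range of levels in both groups. Psmd8 and Psmb6 were the highest at 366 ± 56 and 330.0 ± 49 CPM per kilobase with the mimic and 402 ± 15 and 378 ± 17 in controls (SD, n = 6 and 5). Psme1 stood at 137 ± 21 with the mimic, next to Psma7 (130.0 ± 15) and Psmb4 (121 ± 11), from which it did not differ beyond the spread, and at 96.9 ± 3.1 in controls, where Psma7 (141 ± 5.4) and Psmb4 (124 ± 1.7) lay above it. Psmb8 stood at 94.8 ± 11 and 65.8 ± 2.6, Psmb10 at 83.2 ± 8.6 and 60.8 ± 2.8, Psme2 at 59.6 ± 5.3 and 39.0 ± 2.1, and Psmb9 at 38.0 ± 8.0 and 29.7 ± 0.87. Psmb5, whose shared stretches leave its level uncertain, stood at 31.6 ± 4.2 and 36.8 ± 2.3.

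Genes that work with the proteasome but lie outside the name pattern were called in numbers near those of all genes. Of 16 tested partners 2 were higher and 2 lower, where 15.4% of all genes were higher and 14.6% lower, and the median log2 fold change was 0.039. Nfe2l1, the transcription factor NRF1 that induces proteasome genes when the proteasome is inhibited, rose by 0.18 ± 0.040, and Uchl5, a deubiquitinase of the 19S particle, by 0.39 ± 0.094, while the shuttle factor gene Ubqln2 fell by 0.33 ± 0.081 and Shfm1, a small lid subunit, by 0.27 ± 0.083 (SE; limma adjusted p = 0.00329, 0.00676, 0.00699 and 0.0242). Pomp, the maturation factor of the core, measured -0.18 (limma adjusted p = 0.0985).

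The genes that carry proteasome products to MHC class I rose with the immune subunits, 10 of 12 tested and 0 lower, against 15.4% and 14.6% of all genes, and their median was 0.49 on the log2 scale. Nlrc5, the transactivator of MHC class I genes, rose by 1.12 ± 0.069, the peptide transporter gene Tap1 by 1.10 ± 0.068, the trimming peptidase gene Erap1 by 0.53 ± 0.047 and B2m by 0.63 ± 0.058 (SE; limma adjusted p of at most 5.21e-07). H2-D1 and Calr did not pass, at 0.049 and 0.087. Among transcription factors of interferon signalling, Stat2 rose by 1.56 ± 0.090, Irf7 by 2.51 ± 0.12 and Irf9 by 0.71 ± 0.052 (SE; limma adjusted p of at most 2.29e-08), and Irf1 was also called higher, while Irf2 and Irf8 did not pass, at 0.035 and -0.074. Their part in the levels of the immune subunits was not tested.

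Of the 48 members, 14 have in the authors' deposited table an adjusted p below 0.05, and all of these were among the 17 called here. The 3 called here alone were Psma3, Psmb5 and Psmd3, for which the authors' deposited table gives adjusted p of 0.106, 0.0665 and 0.0531. For Psmb9 the authors' deposited table gives a log2 fold change of 0.32 with an adjusted p of 0.0849.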

How the data were processed

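RNA from 11 libraries of mouse macrophages was sequenced. The submitters' processing notes name STAR, Subread, featureCounts and edgeR; their versions, roles, genome build, annotation and strand setting are not given in the sources used here. Their deposited file is 1 table with log2 CPM per gene and library, together with log2 fold changes and p-values of their own comparison; duplicate rows of a gene were dropped. Inverting the deposited log2 CPM gave back reads, 100% of them whole within 0.01 read, and voom on these reads called 5621 genes.

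The 12969 genes that reached a log2 CPM of -1 in 5 or more libraries were tested with limma 3.58.1 (trend, robust; statmod 1.5.0, R 4.3.3) on the log2 CPM as deposited, which hold a pseudocount of 0.5 read, so fold changes of low genes are understated. A count test would have been the main one only had the table held raw counts; the recovered reads were tested as an alternative, with voom. Ratios were tested with an exact permutation test. Transcript lengths, coordinates and shared stretches of 50 bases came from GENCODE M21 (GRCm38), with the principal coding transcript of each gene; the length correction subtracted a lowess curve (span 0.3) of each library's deviation on log2 length. Promoters came from RefSeq. Python 3.11.15, pandas 2.3.3, numpy 2.4.6 and matplotlib 3.10.9 were used. The fit was checked on simulated reads with equal dispersion in both groups and no trend with length. That check therefore does not cover the wider spread and the length trend of the mimic libraries.

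Per role, the member with the smallest p is described with its library values, with all immune and constitutive catalytic subunits and, per other list, the 4 genes with the smallest p. A result for the transcription factors of interferon signalling is not reported here, and no count is given for that list. The members, lists and tests were chosen with earlier results of these data known. The alternatives were other scaling, filters, pseudocount and threshold, non-robust settings, a replicate block, length corrections, voom with sample weights, and leaving out each library or mimic replicates 3, 4 and 6. The mature microRNA was not measured, and counting errors are not part of the spread given.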

Additional observations from a re-analysis of the deposited data

Results flagged for a closer look

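In 40 groups of values of members and ratios, the highest or lowest library was compared with the rest of its group; chance alone marks about 1 group in 20. Control replicate 3 had a log2 CPM of 6.574 for Psmb7, apart from the nearest control at 6.472, a gap of 0.738 of the range of the 5 controls. Control replicate 4 had a log2 ratio of Psmb8 to Psmb5 of 1.845, apart from the nearest control at 1.684, a gap of 0.775 of the range, and was still below the lowest mimic library at 2.36.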

How the results depend on the processing

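Besides the values as reported, 24 settings were run. The number of immune subunits called was 4 or 5 under each, and Psmb8, Psmb10, Psme1 and Psme2 passed as higher under each setting. Leaving out 1 library moved the proteasome genes called, 17 as reported, to between 14 and 29, and the other subunits called lower, 3 as reported, to between 1 and 14, with the 14 and 29 without mimic replicate 1. All genes called, 3892 as reported, numbered 2908 to 5199 when 1 library was left out, with the 5199 without mimic replicate 1. They numbered 2100 without mimic replicates 3, 4 and 6, 3723 with no scaling factor and 1759 at a threshold of 0.01. Proteasome genes called numbered 32 with voom, where 22.8% of all genes were called higher and 20.5% lower, and 11 at 0.01. Other subunits called higher, 10 as reported, numbered 17 after the length correction and 18 with the longest transcript's length, an alternative chosen after seeing the data; under the latter Psmb4 measured 0.089 (limma adjusted p = 0.0298; -0.046 as reported) and Psmd6 0.10 (limma adjusted p = 0.0492; -0.0060 as reported). Other subunits called lower numbered 5 with no scaling factor, 13 with voom, and 0 at 0.01 and without mimic replicates 3, 4 and 6, where the median of the immune subunits was 0.66. The labels do not say whether replicate numbers pair the samples. Correlations of deviations over the 5 shared numbers lay between -0.061 and 0.062. They cannot settle the question, because the component that leads the mimic deviations was nearly absent in the controls. With the replicate block, which uses 10 libraries, 7 other subunits were called lower, or 16.3% against 13.8% of all genes. The ratios then differed by 0.76, 0.51 and 0.40, each with an exact p = 0.0625, the smallest that 5 pairs allow. Of the values of single genes under these settings, 999 kept their side of the threshold, 66 newly passed it, 37 lost it, and 2 passed it with the sign turned; changes of sign among values that passed under neither setting are not counted. The causes were not tested. Psmb11 had too few reads to be tested, and the part of counting error in the spread of low members such as Psma8 and Psme2b was not tested.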
